A study of Mus musculus with 12 samples.

Results

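Keratins are the intermediate filament proteins of epithelia. The set described here is every gene whose GENCODE mouse release 21 symbol is Krt followed by a number and that held 3 or more counts in at least 2 of 12 RNA-seq libraries of mouse epididymis. Of 55 such symbols among 55536 gene identifiers, 25 met this rule: 13 type I genes, 11 type II genes and the processed pseudogene Krt8-ps, grouped here with type II. Among the 30 symbols that did not, 15 had no counts at all and the other 15 had at most 8 in all libraries together. At the edge of the rule, Krt79 reached 3 counts in 2 libraries and was kept, while Krt222, Krt1 and Krt33a reached it in 1 library and were not.

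All tissue came from wild-type mice (genotype WT). The groups C1, C2 and C3 are segments 1, 2 and 3 of control epididymis without ligation. L1, L2 and L3 are the same segments after efferent duct ligation, in which a 4-0 PDS suture closed the ducts that bring fluid and sperm from the testis, at the point where they reach the caput. Each of these 6 groups had 2 libraries, each a pool of 2 mice, with 1 library in sequencing batch 3017 and 1 in batch 3097. The sources used here do not give strain, age or the time after ligation, nor say whether groups share mice. The spread behind the p-values is that between pools, after the shift shared by the libraries of a batch is taken out. It is estimated over all 6 groups.

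Keratin filaments are built from heterodimers of an acidic type I chain and a basic type II chain, so an epithelial cell makes at least 1 of each. Simple epithelia, such as the luminal principal cells of the epididymal duct, are known for KRT8 and KRT18 with KRT7, KRT19 or KRT20. Basal cells, which sit on the basement membrane below them, are known for KRT5 and KRT14, with KRT15 and KRT17 in some settings. The filaments attach to desmosomes between cells and to hemidesmosomes at the basement membrane.

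Library totals were 30.5 to 42.3 M counts, and keratin genes took 0.149% to 0.225% of them. The labelled tissue was checked on a list of 11 principal cell and general epithelial genes (among them Epcam, Cdh1 and Gpx5), all of which passed the low-count filter and which together held 28800 to 65300 CPM. Most of that sum was Gpx5, which alone held 26600 to 62600 CPM, while Epcam held 312 to 479. Libraries of a group differed by more than counting noise over all genes: chi-square divided by its degrees of freedom was 22.6 to 114, highest between the C2 libraries. Levels are TMM-scaled CPM, which are counts scaled to a common library size. Log2 fold changes are given ± SE, and p-values are those of edgeR's quasi-likelihood test, adjusted over 19213 genes. The SE is approximate: it is the size of the fold change divided by the square root of that test's F. SEs of different contrasts therefore need not combine as standard errors do, least of all at low counts. Values given in pairs are in the order of batch 3017 and batch 3097. Scaling by library totals in place of TMM moved the median log2 fold change of all genes by 0.202 for L1 against C1, by 0.129 for L2 against C2 and by 0.169 for the difference between the ligation effects in segments 1 and 3, so changes are relative to TMM scaling.

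The genes lie in 2 clusters. Chromosome 11 (GRCm38) holds 27 of the 55 symbols, 12 of them in the set, between 99232761 and 100269871, and chromosome 15 holds 27, again with 12 in the set, between 101347444 and 102032027. Krt8-ps lies alone on chromosome 7. Type I genes fill the chromosome 11 cluster and type II genes the one on chromosome 15, except that the type I gene Krt18 stands at the edge of the latter, 23.7 kb from its partner Krt8. Krt15 and Krt19 are 4.9 kb apart, and Krt23 is 647.7 kb from Krt19 in the same cluster.

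To show the sequence before the start site, 4 named genes with a RefSeq entry are printed (GRCm38.p6, 250 bases before the annotated start, 5′ to 3′ on the gene's strand). Krt23 and Krt10 are shown because both fell in ligated segment 1, Krt5 because it rose there, and Krt18 because its level stayed within a narrow range. The windows are chr11:99493121-99493370 (minus strand) for Krt23, chr11:99389365-99389614 (minus) for Krt10, chr15:101712906-101713155 (minus) for Krt5 and chr15:102027966-102028215 (plus) for Krt18. Capitals mark matches to the motifs searched.
Krt23: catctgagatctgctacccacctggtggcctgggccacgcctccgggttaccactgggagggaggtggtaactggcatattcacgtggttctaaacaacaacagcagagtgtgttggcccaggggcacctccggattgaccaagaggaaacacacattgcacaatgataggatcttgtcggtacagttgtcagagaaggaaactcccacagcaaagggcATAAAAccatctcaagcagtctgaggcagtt
Krt10: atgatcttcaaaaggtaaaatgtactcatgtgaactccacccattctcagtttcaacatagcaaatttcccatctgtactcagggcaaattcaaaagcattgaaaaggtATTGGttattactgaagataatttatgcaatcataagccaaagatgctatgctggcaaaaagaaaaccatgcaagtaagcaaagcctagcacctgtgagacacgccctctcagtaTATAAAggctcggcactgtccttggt
Krt5: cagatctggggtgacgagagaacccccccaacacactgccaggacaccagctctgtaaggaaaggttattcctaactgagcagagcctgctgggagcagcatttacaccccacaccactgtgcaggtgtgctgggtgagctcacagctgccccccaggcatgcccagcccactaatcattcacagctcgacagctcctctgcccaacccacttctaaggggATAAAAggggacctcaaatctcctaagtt
Krt18: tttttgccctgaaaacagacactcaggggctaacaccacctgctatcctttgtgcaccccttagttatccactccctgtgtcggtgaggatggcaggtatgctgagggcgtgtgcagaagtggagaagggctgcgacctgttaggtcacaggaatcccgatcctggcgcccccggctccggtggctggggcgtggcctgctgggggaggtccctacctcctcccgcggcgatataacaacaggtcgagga

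The motifs, searched on both strands of windows from 250 bases before to 50 after the start and chosen after the data had been seen, were TATAAA (in 13.6% of 32851 RefSeq windows of that length), ATAAAA (18.5%), CCAAT (37.4%), GGGCGG (35.7%), TGANTCA (7.81%) and CGGAAG (16.9%). TATAAA and ATAAAA can overlap. Of the 25 genes, 16 had a window. ATAAAA began 31 bases before the start of Krt23 and 29 before that of Krt5, and TATAAA began 26 before that of Krt10, where CCAAT also matched on the other strand, 141 bases before the start (ATTGG as printed). Krt18 had no match. Either TATA form stood on the gene's strand 20 to 40 bases before the start in 8 of the 16 keratin windows and in 2.87% of all windows. Among the genes called in L1 against C1, Krt5, which rose, and Krt23 and Krt10, which fell, carried such a match. Krt14, which also rose, had a window without any match. That window (chr11:100206031-100206280, minus strand) lies inside the GENCODE gene, whose 5′ end is at 100207548. Sequence before that end was not searched for Krt14. Krt19 and Krt17 had no window.

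Krt18 and Krt8, the type I and type II chains of simple epithelia, were nearly level across the groups. Krt18 (ENSMUSG00000023043) held 608 and 554 CPM in C1, 541 and 551 in C2, 567 and 566 in C3, 634 and 588 in L1, 601 and 585 in L2, and 595 and 532 in L3. Krt8 (ENSMUSG00000049382) held 488 and 473 CPM in C1, 380 and 451 in C2, 407 and 475 in C3, 496 and 528 in L1, 470 and 489 in L2, and 485 and 461 in L3. All libraries lay between 532 and 634 CPM for Krt18 and between 380 and 528 for Krt8. After ligation the log2 fold change in segment 1 was 0.07 ± 0.09 for Krt18 (adjusted p = 0.53) and 0.09 ± 0.11 for Krt8 (adjusted p = 0.51), and neither was called in any of the 6 contrasts between groups. With library totals both were called higher in L1. Per kilobase of merged exons, so that genes can be set against each other, they made up 57.1% to 65.9% of all keratin in every library. Krt8-ps, 0.869 to 1.88 CPM, was not called in any contrast, and its counts are uncertain because reads can be shared with Krt8.

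**Figure D1:**
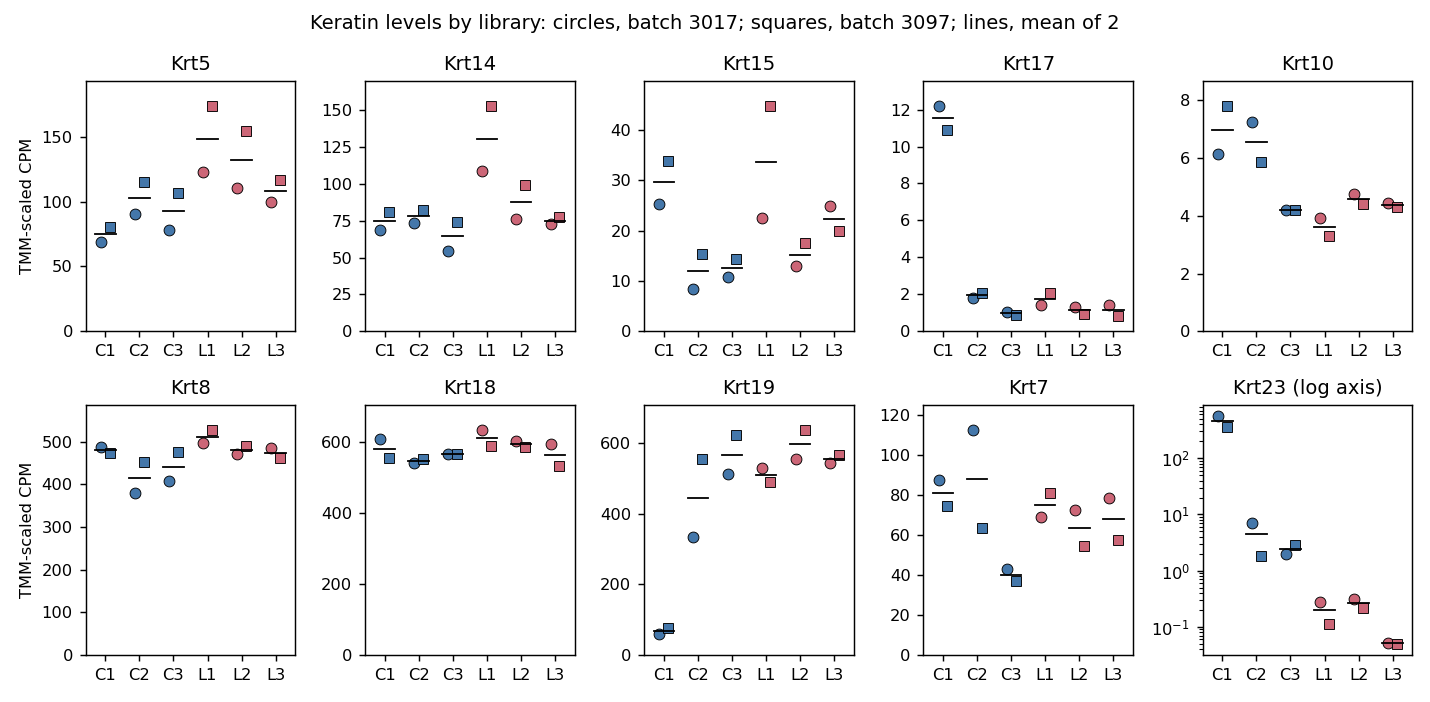
Levels of 10 keratin genes (y axis, TMM-scaled CPM, from 0 except for Krt23, whose axis is logarithmic) in the 6 groups (x axis). Circles are batch 3017, squares batch 3097, blue control, red ligated, and lines the mean of 2 libraries; Krt23 is high and Krt19 low in C1 only, while Krt8 and Krt18 are nearly level.

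Krt19 and Krt23, both type I genes, had opposite patterns in control tissue. KRT19 is a luminal and ductal keratin with an unusually short tail, and KRT23 is a less studied keratin found in some glandular and tumour epithelia. Krt23 (ENSMUSG00000006777, chromosome 11, 99477974 to 99493137) held 561 and 365 CPM in C1, 7.15 and 1.83 in C2, and 1.99 and 2.84 in C3. After ligation it held 0.281 and 0.112 CPM in L1, 0.311 and 0.219 in L2, and 0.0524 and 0.0506 in L3, which are 12 and 4, 12 and 9, and 2 and 2 counts. The 2 C1 libraries stood far above the other 10, and every ligated library lay below every control library. Krt19 (ENSMUSG00000020911, chromosome 11, 100140810 to 100148665) was lowest in C1, at 58.8 and 77.3 CPM, against 336 and 555 in C2 and 513 and 624 in C3, and held 492 to 639 CPM in the 6 ligated libraries.

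In C1 against C2, Krt23 was higher by 6.78 ± 0.50 on the log2 scale (adjusted p = 0.00021) and Krt19 lower, at -2.70 ± 0.18 (adjusted p = 2.6e-05). Against C3 the values were 7.50 ± 0.52 for Krt23 (adjusted p = 9.9e-05) and -3.07 ± 0.18 for Krt19 (adjusted p = 7.7e-06). In L1 against C1, Krt23 fell by 11.18 ± 0.67 on the log2 scale (adjusted p = 6.9e-05), a fitted 2310-fold fall that was -9.49 and -9.22 within the batches with 0.5 CPM added. Krt19 rose in L1 with a log2 fold change of 2.93 ± 0.18. That brought it near the other ligated segments but still below them (531 and 492 CPM in L1, 556 and 639 in L2, 546 and 569 in L3). The log2 effect on Krt23 in segment 1 minus that in segment 2 was -7.20 ± 1.42 (adjusted p = 0.02). The same difference against segment 3 did not pass with edgeR (-5.63 ± 2.79, adjusted p = 0.18), while DESeq2 called it. Within the batches, with 0.5 CPM added, that difference was -7.32 and -6.62. The added 0.5 CPM shortened the fall in segment 3 (fitted -5.54, within the batches -2.17 and -2.60) more than that in segment 1. It thereby widened the difference.

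As a share of the type I level per kilobase, Krt23 made up 40.9% and 31.6% in the C1 libraries and at most 0.745% in any other. Krt19 made up 3.62% and 5.66% in C1 and 29.5% to 42.9% elsewhere, and its range of 33.6% to 35.5% in L1 lay within that of C2. The 2 genes added together gave 332.5 ± 81.8 CPM per kb in C1, 242.9 ± 81.2 in C2, 308.1 ± 42.7 in C3, 275.8 ± 14.8 in L1, 322.3 ± 31.6 in L2 and 300.3 ± 8.75 in L3 (mean ± SD, n = 2). C1 overlapped every other group in this sum, while L1 lay below L2 and L3. The whole type I level was 613.5 to 877.5 CPM per kb, the type II level 249.9 to 360.8, and their ratio 2.19 to 2.99 over all 12 libraries. These sums are descriptions and carry no test.

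**Figure D2:**
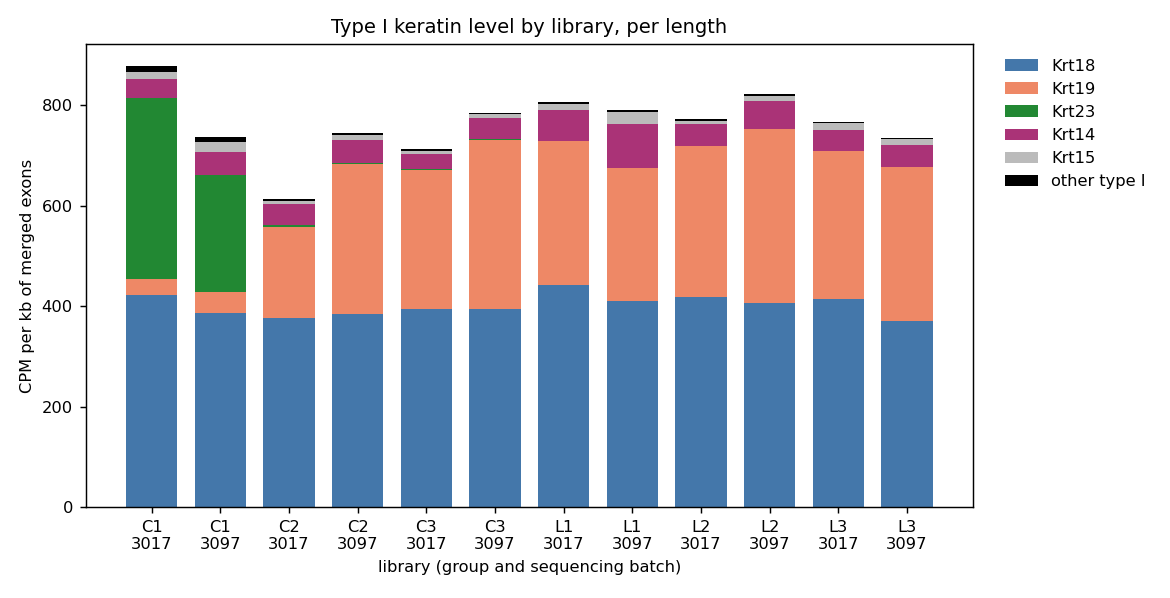
Stacked type I keratin level in each of the 12 libraries (y axis, CPM per kb of merged exons, from 0; x axis, group and batch; colours, genes). Krt23 takes 40.9% and 31.6% of the bar in the C1 libraries and Krt19 takes 29.5% to 42.9% in the other libraries, while bar heights run from 613.5 to 877.5.

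Per kilobase, Krt18 led in every group. In C1 it stood at 404.3 ± 26.4 CPM per kb, followed by Krt23 (295.8 ± 88.8), Krt8 (245.4 ± 5.15), Krt14 (42.56 ± 5.03), Krt19 (36.69 ± 7.03) and Krt5 (34.09 ± 3.66). Krt23 and Krt8 changed places between the C1 libraries, and the range of Krt19 overlapped those of Krt14 and Krt5. Within the libraries Krt5 stood at 0.808 and 0.795 of Krt14. In L1 the order was Krt18 (425.3 ± 22.6), Krt19 (275.7 ± 14.8), Krt8 (261.3 ± 11.6), Krt14 (74.41 ± 17.8) and Krt5 (67.61 ± 16.3), in which Krt19 and Krt8 changed places between libraries and Krt5 stood at 0.907 and 0.910 of Krt14.

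Krt7, a type II keratin of ducts and glands, held 87.4 and 74.2 CPM in C1, 112.6 and 63.5 in C2, 42.8 and 37.1 in C3, 69.1 and 80.7 in L1, 72.6 and 54.5 in L2, and 78.2 and 57.3 in L3. It was lowest in C3, below every other library. Krt7 was higher in C1 than in C3 by 1.01 ± 0.21 (adjusted p = 0.0045) and in C2 than in C3 by 1.11 ± 0.21 (adjusted p = 0.049). The latter call was kept without C2 of batch 3097, or without either L1 library, and lost without any other single library. In segment 3 ligation gave 0.75 ± 0.21 (adjusted p = 0.15), which DESeq2 called and edgeR did not. In segment 1 it gave -0.09 ± 0.20, which turned to 0.12 with library totals. Krt20, the remaining luminal gene, lay outside the naming rule and is named after its values were seen: it had 1 and 0 counts in C1, 3 and 10 in C2, 12 and 7 in C3, 2 and 5 in L1, 1 and 1 in L2, and 1 and 0 in L3. The ratio of C2 to C1 was 15.9 (95% exact interval 2.39 to 675) and of C3 to L3 20.2 (3.21 to 838), for counting error only, at a depth where a single count moves the value.

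The 4 basal keratins did not move together. Krt5 (type II; ENSMUSG00000061527) held 69.2 and 80.6 CPM in C1, 90.3 and 115 in C2, 78.3 and 107 in C3, 123 and 174 in L1, 110 and 155 in L2, and 99.8 and 117 in L3. Its partner Krt14 (type I; ENSMUSG00000045545) held 68.6 and 81.1 CPM in C1, 73.5 and 82.4 in C2, 54.7 and 74.3 in C3, 109 and 153 in L1, 76.3 and 99.1 in L2, and 72.8 and 77.3 in L3. For both genes the 2 L1 libraries lay above the C1 libraries without overlap. Krt5 rose in L1 by 0.97 ± 0.09 (adjusted p = 4.7e-05), and by 0.83 and 1.10 within the batches. Krt14 rose by 0.79 ± 0.10 (adjusted p = 2.6e-04), and by 0.66 and 0.91 within the batches.

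Krt17, a basal and appendage keratin that is also induced in stressed epithelium, went the other way. It held 12.2 and 10.9 CPM in C1, 1.82 and 2.09 in C2, 1.05 and 0.895 in C3, 1.42 and 2.04 in L1, 1.30 and 0.949 in L2, and 1.44 and 0.834 in L3. Only the C1 libraries stood apart. Krt17 fell in L1 by 2.73 ± 0.29 (adjusted p = 8.9e-05), and was higher in C1 than in C2 by 2.55 ± 0.29 (adjusted p = 0.00019) and than in C3 by 3.57 ± 0.31 (adjusted p = 2.9e-05). Krt15, a keratin of quiescent basal cells, held 25.4 and 33.9 CPM in C1, 8.46 and 15.4 in C2, 10.8 and 14.3 in C3, 22.6 and 44.8 in L1, 12.9 and 17.5 in L2, and 24.8 and 19.9 in L3. It was higher in C1 than in C2 by 1.34 ± 0.28 (adjusted p = 0.0068) and than in C3 by 1.24 ± 0.28 (adjusted p = 0.0072). L1 overlapped C1 for this gene (0.14 ± 0.27, adjusted p = 0.69). Krt16, Krt6a and Krt6b, the other keratins known from stressed or fast-growing epithelium, had 4, 0 and 0 counts in all libraries.

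Krt10, a type I keratin of suprabasal epidermis, also fell in L1. It held 6.13 and 7.80 CPM in C1, 7.26 and 5.86 in C2, 4.20 and 4.21 in C3, 3.94 and 3.30 in L1, 4.77 and 4.41 in L2, and 4.45 and 4.32 in L3. C1 and C2 lay above the other 4 groups. Its log2 fold change in L1 was -0.95 ± 0.19 (adjusted p = 0.0028), and C1 was above C3 by 0.73 ± 0.19 (adjusted p = 0.0098). Its exons share 146 bases with the antisense gene Gm11940 on the opposite strand, which had 368 counts against 2201 for Krt10, and the strand setting of the counting is not known. Krt80, an epithelial type II keratin, held 0.869 to 4.51 CPM, with both extremes in the C2 libraries, and was not called in any contrast. Krt80, Krt7, Krt8 and Krt5 also share exon bases with genes on the opposite strand (263 with Gm35853, 77 with Gm671, 101 with Gm36026 and 129 with Gm44323), so the same limit on strand holds for their counts. The overlapping genes had 89, 150, 474 and 120 counts in all.

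**Figure D3:**
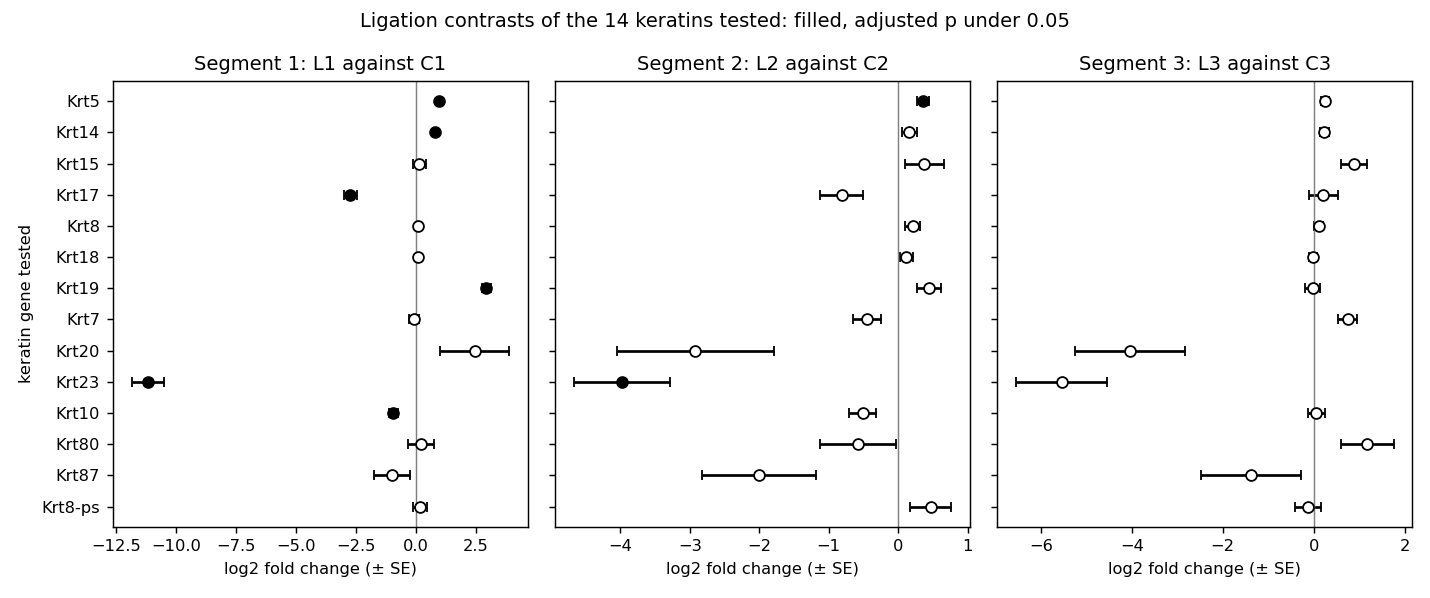
Log2 fold change after ligation (x axis, ± SE, with a different scale in each panel) of the 14 keratin genes tested (y axis) in segments 1, 2 and 3. Filled points have an adjusted p under 0.05: 6 in segment 1, 2 in segment 2 and 0 in segment 3.

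In all, 14 of the 25 genes passed the low-count filter and were tested: all 4 basal and all 5 luminal members, Krt10, Krt23, Krt80, Krt87 and Krt8-ps. In L1 against C1, 6 of these 14 were called, against 48.7% of all genes: Krt19, Krt5 and Krt14 higher (background 24.4%) and Krt23, Krt17 and Krt10 lower (24.4%). All 6 calls were kept whichever library was left out, with DESeq2 and under the other settings tried, and with library totals the split became 5 higher and 3 lower. The shares of members called, 42.9% in all and 21.4% in each direction, lay near those of all genes. The median log2 fold change was 0.12 over the 14 genes and 0.03 over all genes.

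In L2 against C2, 2 of 14 were called, against 9.86% of all genes. Krt5 was higher by 0.36 ± 0.09 (adjusted p = 0.036; background for higher genes 2.87%) and Krt23 lower, at -3.98 ± 0.70 (adjusted p = 0.023; background for lower genes 7.0%). With library totals the split was 2 higher and 1 lower. Both calls were lost without C2 of batch 3017 and without either L2 library, Krt23 alone without L1 of batch 3017, and 5 genes were called without C2 of batch 3097. In L3 against C3, edgeR called 0 of 14, against 1.72% of all genes, with 6 at an unadjusted p under 0.05. DESeq2 called 3 (Krt23 lower, Krt7 and Krt15 higher). The 1.72% is for edgeR at the adjusted p only. In no contrast was a share of all genes taken at an unadjusted p or with DESeq2, so such counts of keratins have no background. Krt23 had the lowest fitted log2 fold change there, -5.54 ± 1.00 (adjusted p = 0.064), and was called without either C2 library or without C3 of batch 3017. Krt7 was called without either C2 or either L1 library, and Krt15 without L3 of batch 3097.

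Between control segments, C1 against C2 called 6 of 14 (43.2% of all genes), with Krt23, Krt17 and Krt15 higher in C1 (background 21.1%) and Krt19, Krt5 and Krt20 lower (22.1%). C1 against C3 called 8 of 14 (51.2% of all genes), with Krt23, Krt17, Krt15, Krt7 and Krt10 higher (25.0%) and Krt19, Krt5 and Krt20 lower (26.2%). In C1 against C2, Krt15 was lost without C2 of batch 3017, and Krt20 with DESeq2 and without any other single library. With DESeq2 these splits were 3 higher and 2 lower, and 5 higher and 1 lower. C1 against C3 called 5 without C1 of batch 3097 and 10 without either C2 library. C2 against C3 called 1 of 14, Krt7, against 1.79% of all genes. The shares of members called in C1 against C2 and against C3 lay near the shares of all genes, and comparisons that use the same control libraries are not independent.

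The ligation effect differed between segments 1 and 2 for 5 of 14 genes (18.5% of all genes) and between segments 1 and 3 for 6 of 14 (30.7%). With DESeq2 the latter was 7, with 3 higher and 4 lower in place of 4 and 2. Between segments 2 and 3 edgeR called 0 of 14 and 0.0% of all genes, with 2 keratins at an unadjusted p under 0.05, and DESeq2 called 1, Krt7.

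Basal keratin (Krt5, Krt14, Krt15 and Krt17 summed per kilobase) was 14.5 ± 2.18% of luminal keratin (Krt7, Krt8, Krt18, Krt19 and Krt20) in C1, 11.72 ± 0.197% in C2, 9.24 ± 1.32% in C3, 16.73 ± 4.87% in L1, 12.06 ± 2.19% in L2 and 11.18 ± 0.926% in L3 (mean ± SD, n = 2). Single C1 libraries were at 12.95% and 16.04% and L1 libraries at 13.29% and 20.17%, so C1 and L1 overlapped. Both sums behind the ratio were higher in L1: the basal sum was 100.9 ± 11.5 CPM per kb in C1 and 162.2 ± 43.2 in L1, and the luminal sum 697.8 ± 25.8 and 973 ± 24.6. Krt19 held most of the luminal difference. Against Krt8 alone, Krt5 stood at 12.7% and 15.2% in C1 and at 22.2% and 29.4% in L1, without overlap. In bulk tissue, fewer cells of a type and less RNA per cell cannot be told apart.

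**Figure D4:**
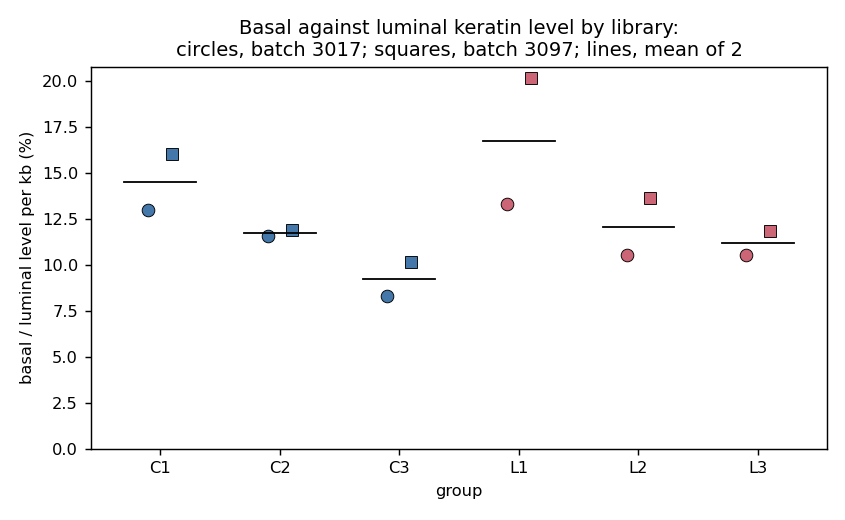
Basal keratin as a percentage of luminal keratin, per kilobase (y axis, from 0), in the 6 groups (x axis; circles batch 3017, squares batch 3097, lines the mean of 2). C3 is lowest at 9.24% and L1 highest at 16.73%, and the C1 and L1 libraries overlap.

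Other genes that mark basal cells changed in both directions in segment 1. Of 10 listed genes 9 were tested, and in L1 against C1 2 were called higher and 4 lower, against 24.4% of all genes in each direction, with a median of 0.10 against 0.03 for all genes. Trp63, the transcription factor that keeps the basal state, was lower by 0.97 ± 0.13 (111 and 97.2 CPM in C1, 46.3 and 60.0 in L1; adjusted p = 0.00028), and Cldn1, a tight junction gene, had a log2 fold change of -1.22 ± 0.14 (adjusted p = 0.00016). Itga6 and Lamb3 were also lower, Sfn (1.15 ± 0.11) and Cd44 (0.81 ± 0.19) higher, and Itgb4, Col17a1 and Ngfr did not pass (0.10 each). Aqp3 was under 0.1 CPM in every library. The summed level of the list was 431 to 455 CPM in C1, 295 to 309 in C2, 232 to 254 in C3, 285 to 343 in L1, 253 in both L2 libraries and 212 in both L3 libraries. C1 was called higher than both other control segments for 5 of the 9 genes (21.1% of all genes against C2 and 25.0% against C3), as it was for Krt15 and Krt17, and lower for Krt5.

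**Figure D5:**
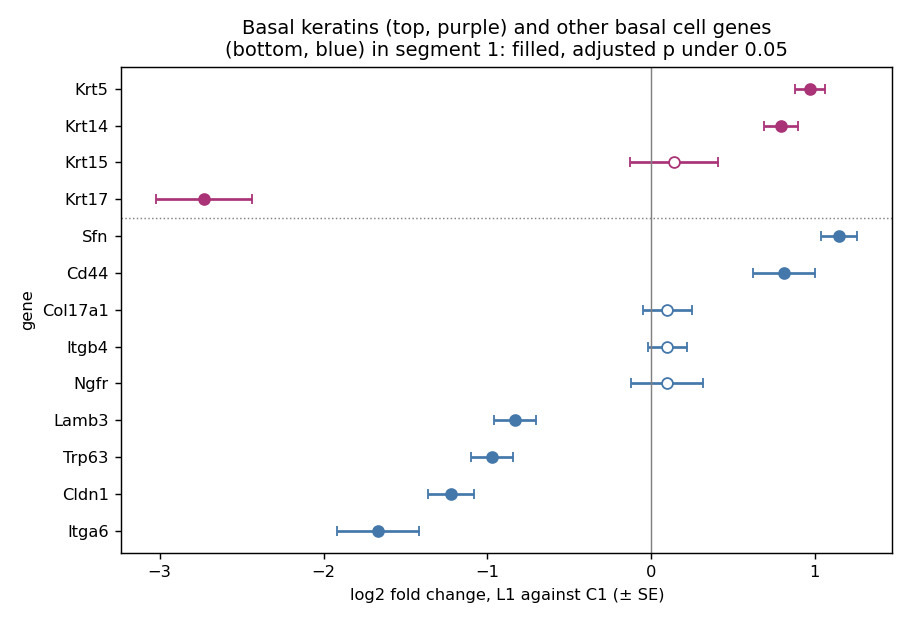
Log2 fold change of L1 against C1 (x axis, ± SE) for the 4 basal keratins (purple, top) and the 9 other basal cell genes tested (blue, bottom). Filled points have an adjusted p under 0.05; Krt5 and Krt14 lie to the right of 0, while Krt17, Trp63, Cldn1 and Itga6 lie to the left.

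Among the genes that anchor keratin filaments, 4 of 8 tested hemidesmosome members were called lower in L1 and 0 higher (median -0.55, against 0.03 for all genes), where 24.4% of all genes were called lower and 48.7% in either direction. The 4 lower genes were Itga6, the integrin alpha chain (-1.67 ± 0.25), the linker Dst (-1.24 ± 0.19), the laminin chain Lamb3 (-0.83 ± 0.13) and Cd151 (-0.31 ± 0.10). These 4 were also called higher in C1 than in C2 and in C3, comparisons that share the C1 libraries. Plec, Itgb4 and Col17a1, the remaining linker, integrin and collagen of the structure, and Lama3 did not pass in L1 against C1. Among 12 tested desmosome genes, 3 were higher, the cornified envelope linkers Evpl (1.65 ± 0.12) and Ppl (1.13 ± 0.16) and the plakophilin Pkp1 (0.77 ± 0.16), and 5 lower, Jup, Perp, Pkp3, Dsg2 and Dsg1a (median -0.03), against 24.4% of all genes in each direction. Dsp, which ties keratins to the desmosome, was at 482 ± 28.7 CPM in C1 and 502 ± 45.3 in L1.

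Of 12 tested regulators of keratin genes or epithelial identity, 7 were called higher in L1 and 2 lower, against 24.4% of all genes in each direction (median 0.46, against 0.03). The ETS factor Elf3 went from 108 and 109 to 629 and 466 CPM (2.35 ± 0.37, adjusted p = 0.0022), and Tfap2c (2.28 ± 0.40), Ovol1 (1.45 ± 0.18), Klf4 (1.29 ± 0.16), Ehf (1.27 ± 0.14), Ovol2 (0.59 ± 0.16) and Grhl1 (0.30 ± 0.09) were the others. Trp63 and Grhl2 (-0.96 ± 0.12) were lower. Against the same 24.4% in each direction, 5 of 9 keratin organisers tested were higher, among them the chaperone Hspb1 (2.00 ± 0.24), trichohyalin Tchh (1.95 ± 0.22) and epiplakin Eppk1 (1.09 ± 0.28), and 2 were lower, Cyld and Krtcap2. Of 12 other intermediate filament genes, 6 were higher (24.4% of all genes), including the neuronal filament genes Nefh (3.07 ± 0.49) and Ina (2.68 ± 0.32), and Nes (-1.64 ± 0.24) and Nefm (-3.62 ± 1.13) were lower. Ina held 1.65 and 2.03 CPM in C1 and 9.11 to 18.5 in every other library, so that C1 stood alone for it as for Krt19. Vimentin, the filament of stromal cells, did not pass (0.17 ± 0.12).

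Markers of other tissues that could bring keratin RNA were read in the same libraries. Of 9 skin and hair genes, 6 (Flg, Krtdap, Lce1a1, Lce1b, Sprr1a and Sprr1b) were under 0.1 CPM in every library. Lor, a cornified envelope gene, held 16.0 and 12.9 CPM in C1 and 0.443 and 0.308 in L1 (-5.24 ± 0.69, adjusted p = 0.00061), moving as Krt23, Krt17 and Krt10 did, while Tchh went the other way. Of 3 genes tested on this list, 1 was called higher in L1 (Tchh) and 2 lower (Lor and Dsg1a), with a median of -4.57. The summed list held 29.0 to 31.1 CPM in C1 and 49.1 to 71.1 in L1. Tchh held nearly all of the L1 sum (48.6 and 70.8 CPM). The mesothelial genes Msln, Upk3b, Wt1, Lrrn4 and Muc16 stayed under 0.4 CPM in every library, while Upk1b from the same list held 184 and 191 CPM in C1 and 132 and 139 in L1. The 6 clear and narrow cell genes summed to 266 to 342 CPM in C1 and 931 to 1020 in L1, with 3 called higher and 1 lower. Rhcg held most of the L1 sum (64.2 and 121 CPM in C1, 739 and 654 in L1), while the means of Atp6v0d2 and Car2 were lower in L1. The 5 smooth muscle genes summed to 266 to 333 CPM in C1 and 430 to 550 in L1. The 5 efferent duct and ciliated cell genes summed to 28.2 to 28.9 and 45.8 to 54.9 (4 of 5 called higher, median 1.21). All 5 smooth muscle genes were called higher (median 0.81). In L1 against C1, 24.4% of all genes were called in each direction, the background for every list here. Of 5 fibroblast genes, Dcn (1.69 ± 0.12), Lum, Col3a1 and Col1a1 were called higher in L1 and Pdgfra lower (-3.98 ± 0.66), with a median of 0.84. The sum of that list, 595 to 596 CPM in C1 and 177 to 275 in L1, was mostly Pdgfra in C1 (527 and 511 CPM). Germ cell and sperm genes, 5 of 5 called lower in L1, L2 and L3, summed to 7.91 to 9.35 CPM in C1 and 0.196 to 0.536 in L1. Of all genes, 7.0% were called lower in L2, and 1.72% were called in either direction in L3. The part of these lists in the keratin values was not tested.

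The 11 genes of the set that were not tested held at most 12 counts and 0.311 CPM in any library, with 16 to 50 counts in all. They were the hair keratins Krt31, Krt32, Krt36 and Krt83, the inner root sheath keratin Krt71, the mucosal keratin Krt4, the suprabasal and palmoplantar genes Krt78 and Krt9, and Krt42, Krt79 and Krt88. Krt4 was the broadest of them, with 1 to 8 counts in each library. Krt78 reached 12 counts in the L2 library of batch 3017 and 1 in the other L2 library. Krt87, a hair keratin that was tested, held 17 and 6 counts in C1 and 1 and 2 in L3, and was not called.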

How the data were processed

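Polyadenylated RNA of 12 epididymis pools was sequenced from directional libraries made from 500 ng of RNA, per the labels' protocols. Raw counts of reads per gene, as whole numbers without normalization, are what the authors deposited, with a table for each batch. Per the submitters' processing notes, Trim Galore 0.6.0, cutadapt, FastQC and STAR 2.7.0e were used with GRCm38 (mm10); the sources used here do not name the counting tool or its strand setting. All 55536 identifiers matched GENCODE release 21, from which symbols, coordinates and exon lengths were taken. Genes kept by filterByExpr (minimum count 10; 19213 genes) were fitted with edgeR 4.0.16 (R 4.3.3; TMM, robust quasi-likelihood, group and batch, two-sided) and called where the Benjamini-Hochberg adjusted p was under 0.05. Residual degrees of freedom were 5. How far same-batch libraries deviated together varied. The correlation of deviations between groups ran from 0.05 (C3 with L2 and with L3) to 0.66 (L2 with L3). Batch was a block because the series' design names it. Within-batch ratios use CPM plus 0.5. Levels between genes use merged exon length. Intervals are exact and, as reads carry no molecular identifiers, cover counting error only. The fitting was tested on simulated data.

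Named genes are the basal and luminal keratins other than Krt20, and members with a group mean of at least 1 CPM or called in a ligation contrast. A pair of list members is not reported here and was left out of the lists. The members and all gene lists were chosen with earlier results of these data known. DESeq2 1.42.0, other filters and scalings, a fit without batch, fits of 4 libraries and leaving out each library were the alternatives.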

Additional observations from a re-analysis of the deposited data

Results flagged for a closer look

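The ligation effect differed between segments for 7 keratin genes by edgeR's interaction contrast, given here as the log2 effect in segment 1 minus that in the other segment. Against segment 2 the difference was -7.20 ± 1.42 for Krt23 (adjusted p = 0.02), 2.49 ± 0.24 for Krt19 (adjusted p = 0.00073), -1.92 ± 0.42 for Krt17 (adjusted p = 0.013), 0.63 ± 0.15 for Krt14 (adjusted p = 0.017) and 0.61 ± 0.13 for Krt5 (adjusted p = 0.011). Against segment 3 it was 2.95 ± 0.24 for Krt19 (adjusted p = 0.00018), -2.95 ± 0.43 for Krt17 (adjusted p = 0.0012), -1.01 ± 0.27 for Krt10 (adjusted p = 0.02), 6.49 ± 1.89 for Krt20 (adjusted p = 0.028), 0.56 ± 0.15 for Krt14 (adjusted p = 0.018) and 0.73 ± 0.13 for Krt5 (adjusted p = 0.0027). Both batches had the same sign in all of these. Krt20 rests on at most 12 counts in any library, and its call was lost with DESeq2, with the stricter filter, and without C1, L1 or L3 of batch 3097 or C3 of batch 3017. Krt10 and Krt14 against segment 3, and Krt14, Krt17, Krt23 and Krt5 against segment 2, were each lost without at least 1 library.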

How the results depend on the processing

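The 6 calls in L1 against C1 were kept with each library left out, with DESeq2, with both filters, with library totals, without the batch and with 4 libraries. Elsewhere counts of called keratins moved. DESeq2 called 3 in L3 against C3 and 1 for segment 2 against segment 3. Library totals called 0 in C2 against C3 and turned Krt7 in L1 against C1 to 0.121, and Krt18 and Krt19 in L3 against C3 to 0.025 and 0.013. Without a low-count filter, 1 was called in L2 against C2 and 0 in C2 against C3, and Krt18 in L3 against C3 was 0.004. The stricter filter called 1 in L3 against C3. With no replicate block, so that libraries were not paired by batch, 1 was called in L2 against C2, 0 in C2 against C3 and 3 for segment 1 against segment 2. It lost Krt5 and Krt14 for segment 1 against both other segments, and Krt5 in L2 against C2 and in C1 against C2 and C3. Fits of 4 libraries called 0 in L2 against C2, 2 in L3 against C3 and 0 in C2 against C3. The cause of these shifts was not tested.

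Leaving out 1 library gave 0 to 5 calls in L2 against C2, 0 to 2 in L3 against C3, 5 to 10 in C1 against C3, 0 to 3 in C2 against C3, 1 to 6 for segment 1 against segment 2, 3 to 7 for segment 1 against segment 3 and 0 to 3 for segment 2 against segment 3. Krt19 kept both differences between segments throughout, and Krt17 and Krt5 kept theirs against segment 3. The lowest, 1, came without L2 of batch 3017 (Krt19 alone); 2 remained without C1 of batch 3017 and 3 without L1 of either batch or L2 of batch 3097. Against segment 3 the lowest, 3, came without C1 of batch 3097. The 3 for segment 2 against segment 3 came without C2 of batch 3097 (Krt19, Krt7 and Krt80). Values that changed sign from the main fit were not called. The genes with such values are given with their range. In L1 against C1 they were Krt7 (-0.423 to 0.213), Krt15 (-0.186 to 0.435), Krt80 (-0.249 to 0.761) and Krt8-ps (-0.00 to 0.363). In L2 against C2 it was Krt80 (-1.309 to 0.835). Its lowest value came without C2 of batch 3097 and had the sign of the main fit (-0.579). In L3 against C3 they were Krt17 (-0.198 to 0.565), Krt18 (-0.05 to 0.052), Krt19 (-0.129 to 0.102) and Krt8-ps (-0.346 to 0.138). Principal transcript lengths, added after the data were seen, moved basal to luminal keratin in C2 from 11.72% to 11.25%.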
